A study of Mus musculus with 2 samples.

Results

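Cadherins are calcium-dependent cell surface proteins that hold neighbouring cells together, and protocadherins are their largest group of relatives. All genes whose symbol is Cdh followed by a number, or begins with Pcdh, were taken from the gene counts of 2 mouse embryonic fibroblast (MEF) libraries, which gave 93 gene rows of 51912. Of these, 35 are unclustered genes at separate loci (23 Cdh and 12 Pcdh), and 58 belong to the Pcdha (14), Pcdhb (22) and Pcdhg (22) gene clusters, which are given apart.

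RNA was measured in UKS cells, in which Usp16 is deleted (Usp16-/-), and in KS cells with wild-type Usp16 (Usp16+/+). Both are MEFs of C57BL/6 embryos, immortalized with SV40 T antigen and infected with Ad-Cre, an adenovirus that carries Cre recombinase, and UKS cells come from the line with floxed Usp16 alleles. The comparison asks which transcripts differ with and without Usp16, a deubiquitinase known for its action on histones. Each line gave 1 library, and whether a line is 1 clone or a mixed culture is not given in the sources used here. There is therefore no replicate and no test. The intervals below are exact 95% intervals for the counting of reads alone.

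In a classical cadherin the outer domains bind the same cadherin on the next cell, while the inner tail binds p120 and beta-catenin. Of these, beta-catenin connects through alpha-catenin to actin. Type I cadherins (such as E-, N- and P-cadherin) and type II cadherins (such as cadherin-11) share this plan, and fibroblasts are known for N-cadherin and cadherin-11. Protocadherins adhere weakly and do not bind beta-catenin. The clustered ones are best known in neurons, where a choice of promoters in each cluster gives a cell its own combination of isoforms.

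The libraries held 23205746 counts in UKS and 26561637 in KS, so that 1 count equals 0.0428 CPM (counts per 1000000 counts) in UKS and 0.0379 CPM in KS after scaling by TMM (trimmed mean of M values). Usp16 itself had 459 counts (19.7 CPM) in UKS and 1195 counts (45.3 CPM) in KS, 2.30-fold lower in UKS (2.07 to 2.57), and counts per gene do not show whether the UKS reads fall outside the deleted part. All 12 fibroblast markers were measured, with a summed level of 21674 CPM in UKS and 19742 CPM in KS. Of these 2, Pdgfra and Thy1, were lower in UKS by more than 2-fold (16.7%, against 10.7% of all measured genes). None was higher. With the length and GC trend described below removed, 3 were lower (25%, against 4.97%). The summed CPM of other cell types was 13.1 in UKS and 19.96 in KS for 10 epithelial markers (Krt5, Krt14 and Esrp1 at 0 counts in both). It was 3.47 in UKS and 3.67 in KS for 8 endothelial markers (Cldn5 at 0 in both). Of blood cell markers, Ptprc had 1 count in UKS and 2 in KS, Cd68 had 113 in UKS and 154 in KS, and Itgam and Cd3e had none in either. The sum was 47.4 in UKS and 36.5 in KS for 9 neural markers (Sox10 at 0 in both), with Sox2 at 548 counts in UKS and 128 in KS and Elavl4 at 3 in UKS and 105 in KS, and 1.41 in UKS and 2.31 in KS for 6 skeletal muscle markers (Myog, Myf5 and Pax7 at 0 in both). In bulk RNA, fewer cells that express a gene and less RNA of it per cell cannot be told apart.

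Promoter windows of 4 unclustered members with unlike values are shown first, because they span the range of the results: Cdh10 and Pcdh17 were far lower in UKS, Cdh6 had counts in UKS alone, and Cdh24 had the highest ratio of the measured unclustered genes as counted. Each runs from 250 bases before to 50 bases after a RefSeq gene start (300 bases, GRCm38.p6), 5′ to 3′ on the gene's strand, with every CG dinucleotide in capitals.
Cdh10, chr15:18820079-18820378, plus strand: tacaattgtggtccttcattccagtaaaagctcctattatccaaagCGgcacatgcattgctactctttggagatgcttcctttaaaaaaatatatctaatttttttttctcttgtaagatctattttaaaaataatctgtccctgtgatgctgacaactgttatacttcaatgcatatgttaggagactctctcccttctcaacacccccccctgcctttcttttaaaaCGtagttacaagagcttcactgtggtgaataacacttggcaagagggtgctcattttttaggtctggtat
Pcdh17, chr14:84443313-84443612, plus strand: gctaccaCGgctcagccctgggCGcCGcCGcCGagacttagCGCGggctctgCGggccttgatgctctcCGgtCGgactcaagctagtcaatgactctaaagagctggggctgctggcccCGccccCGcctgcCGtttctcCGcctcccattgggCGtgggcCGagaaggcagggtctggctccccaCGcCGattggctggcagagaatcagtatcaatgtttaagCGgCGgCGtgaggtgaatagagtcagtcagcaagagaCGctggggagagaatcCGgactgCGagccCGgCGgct
Cdh6, chr15:13173626-13173925, minus strand: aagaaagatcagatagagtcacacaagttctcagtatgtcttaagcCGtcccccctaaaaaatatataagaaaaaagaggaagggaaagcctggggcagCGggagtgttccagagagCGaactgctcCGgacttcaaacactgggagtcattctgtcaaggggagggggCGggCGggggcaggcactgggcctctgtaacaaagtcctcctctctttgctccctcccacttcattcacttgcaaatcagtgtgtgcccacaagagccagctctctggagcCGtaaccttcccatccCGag
Cdh24, chr14:54641315-54641614, minus strand: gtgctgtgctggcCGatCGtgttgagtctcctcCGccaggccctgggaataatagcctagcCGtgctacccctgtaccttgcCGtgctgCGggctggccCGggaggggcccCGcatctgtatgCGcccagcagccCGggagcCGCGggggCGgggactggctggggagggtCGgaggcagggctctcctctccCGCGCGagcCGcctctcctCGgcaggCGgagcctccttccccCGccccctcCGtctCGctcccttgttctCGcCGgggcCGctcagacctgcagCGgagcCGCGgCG
The windows hold 2 CG in Cdh10, 26 in Pcdh17, 8 in Cdh6 and 30 in Cdh24, beside a median of 7 and an upper quartile of 20 over all 32851 promoter windows of the table. Their GC content runs from 37.7% in Cdh10 to 73.3% in Cdh24. The CG-rich windows of Pcdh17 and Cdh24 thus belong to genes that lay on opposite sides of the comparison. The Cdh10 window lies inside the gene as GENCODE draws it, downstream of the annotated start at 18818947. RefSeq windows were matched for 22 of the 35 unclustered genes (25 windows), and CAGGTG on either strand, the letters of the E-box that Snail and Zeb factors are known to bind, was in 5 of the 25, in windows of Cdh7, Pcdh15 and Pcdh7, against 20.2% of all windows. None of the 4 windows shown holds these letters, which says only that they are not in these 300 bases.

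Ratios are given on 2 scales. A fold is the plain ratio of CPM. A log2 ratio is log2((UKS + 1)/(KS + 1)), in which 1 CPM is added to each level and which understates the change of low genes, and a gene was called higher or lower in UKS when it passed 2-fold on this scale. Within or past 2-fold always refers to this scale, on which a low gene with a larger plain fold can lie within. The 13015 genes whose 2 levels average 1 CPM or more are here called measured, and among them 5.81% were higher and 10.7% lower in UKS, with a median log2 ratio of 0.03. Because the ratio of all genes moved with transcript length and GC content, a second log2 ratio is given with that trend removed, on which 5.5% of 12997 genes were higher, 4.97% were lower and the median was 0.01.

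Of the 35 unclustered genes 15 were measured, and of the other 20 there were 6 with at least 10 counts in a library, 8 with 1 to 9 counts at most and 6 with none. None of the 15 was higher in UKS, 8 were lower (53.3%, against 10.7% of all measured genes) and 7 lay within 2-fold, with a median log2 ratio of -1.15. With the trend removed 1 was higher, 5 were lower (33.3%, against 4.97%) and 9 lay within, with a median of -0.47. Pcdh15, Pcdh20 and Cdh10 were under 1 CPM in UKS and were measured through their KS level alone, so they had to lie lower. Among the 12 genes at 1 CPM or more in both libraries 6 were lower and the median log2 ratio was -1.03. The 10.7% of all measured genes rests on the mean of the 2 levels. A share of all genes at 1 CPM or more in both libraries was not worked out. The counts of all 35 genes summed to 15739 (674 CPM) in UKS and 27609 (1046 CPM) in KS, 1.55-fold lower in UKS (1.52 to 1.58).

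The Cdh and the unclustered Pcdh genes are given apart here. Of 7 measured Cdh genes 5 were lower in UKS with a median log2 ratio of -1.22, and 5 were lower with the trend removed at a median of -1.29, where 10.7% of all measured genes were lower as counted and 4.97% without the trend. Of 8 measured unclustered Pcdh genes 3 were lower with a median of -0.64, and none was lower and 1 was higher with the trend removed, at a median of -0.03. Median transcript length was 3785 nt for the measured Cdh genes and 7378 nt for the Pcdh genes, with a median GC content of 49.5% for the Cdh genes and 45.1% for the Pcdh genes. Cdh10 among the Cdh genes, and Pcdh15 and Pcdh20 among the Pcdh genes, were measured through KS alone. Whether the 2 groups differ was not tested, because each gene has 1 value per library.

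**Figure D1:**
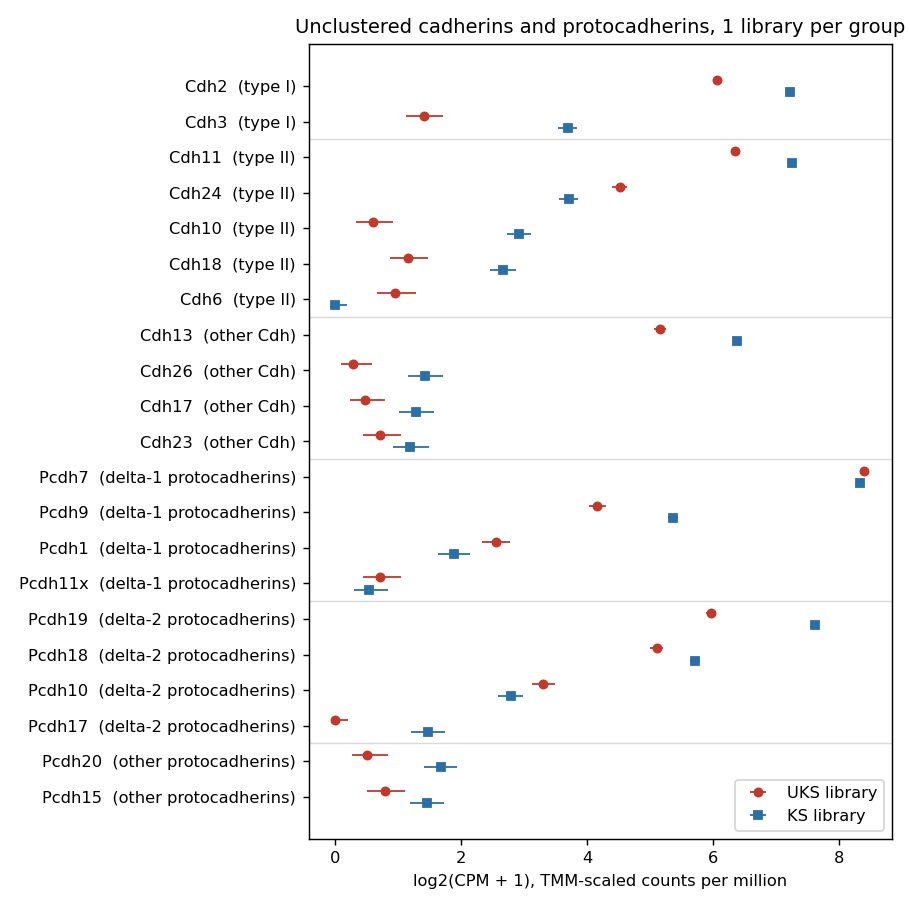
Level of the 21 unclustered genes with at least 10 counts in a library, as log2(CPM + 1) on the x axis, with red circles for the UKS library, blue squares for the KS library, and bars for the exact Poisson 95% interval of the count. Cdh3, Cdh10, Cdh13, Cdh18, Cdh2 and Pcdh19 lie further left in UKS with intervals apart, Pcdh7 is nearly level at 336 CPM in UKS and 320 CPM in KS, and Cdh6 and Pcdh17 are each at 0 in 1 library.

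Type I cadherins were lower in UKS where they were measured. Cdh2, N-cadherin and the main classical cadherin of mesenchymal cells, had 1542 counts (66.0 CPM) in UKS and 3899 counts (147.7 CPM) in KS. That is 2.24-fold lower in UKS (2.11 to 2.37), with a log2 ratio of -1.15 as counted and -1.01 with the trend removed, just past 2-fold on both. Cdh3, P-cadherin, known from basal epithelia, placenta and hair follicles, had 39 counts (1.67 CPM) in UKS and 315 counts (11.9 CPM) in KS, which is 7.14-fold lower in UKS (5.11 to 10.2). Its log2 ratio of -2.28 stayed at -2.31 with the trend removed. Cdh1, E-cadherin, the cadherin of epithelia, was near the floor with 9 counts in UKS and 1 in KS, a ratio of 10.2 with a lower bound of 1.41 and an upper bound of 446. Cdh15, M-cadherin of muscle, had 9 counts in UKS and 6 in KS, and Cdh4, R-cadherin, had none in either. Cdh3 and Cdh1 lie next to each other on chromosome 8, and of that pair Cdh3 had more counts in both libraries. The epithelial marker sum was 13.1 CPM in UKS and 19.96 CPM in KS, and only 2 of the 10 markers were measured. Most of the sum in both libraries was Krt19, with 266 counts in UKS and 423 in KS (log2 ratio -0.46, within 2-fold). Krt18, under 1 CPM in UKS and measured through KS alone, had 18 counts in UKS and 78 in KS (-1.16). Ovol1, not measured, lay the other way with 10 counts in UKS and 1 in KS. The part of epithelial markers in the Cdh3 result was not tested.

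Type II cadherins lay on both sides. Cdh11, known from mesenchyme and bone-forming cells, had 1880 counts (80.5 CPM) in UKS and 4010 counts (151.9 CPM) in KS. It was 1.89-fold lower in UKS (1.79 to 1.99), and its log2 ratio of -0.91 as counted was -0.41 with the trend removed, within 2-fold on both scales. Cdh24, a widely expressed type II cadherin whose promoter is the CG-richest of those shown, went the other way with 513 counts (22.0 CPM) in UKS and 319 counts (12.1 CPM) in KS. That is 1.82-fold higher in UKS (1.58 to 2.10), at a log2 ratio of 0.81 as counted and 0.48 with the trend removed, so it did not reach 2-fold on either.

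Cdh10 and Cdh18, type II cadherins best known in brain, belong to a run of 5 type II genes on chromosome 15 (Cdh6, Cdh9, Cdh10, Cdh12 and Cdh18, spanning 10.4 Mb). Cdh10 had 12 counts (0.514 CPM) in UKS and 174 counts (6.59 CPM) in KS, the largest difference of the measured unclustered genes at 12.8-fold lower in UKS (7.16 to 25.3), with log2 ratios of -2.33 as counted and -1.94 with the trend removed. Cdh18 had 29 counts (1.24 CPM) in UKS and 141 counts (5.34 CPM) in KS, 4.30-fold lower in UKS (2.87 to 6.65), with log2 ratios of -1.4999 and -1.45. Cdh6, K-cadherin, known from kidney and neural crest, lay the other way with 22 counts (0.942 CPM) in UKS and none in KS, at least 8.29-fold higher in UKS against a floor of 3 counts in the KS library, and the exact interval of its ratio, which takes in the counting error of both libraries, reached down to 6.19. Cdh9 and Cdh12, which lie among them, had no counts in either library. The same stretch therefore held 2 genes lower in UKS, 1 seen only there and 2 not detected. Among the remaining type II genes Cdh5, VE-cadherin of endothelium, had 9 counts in each library, Cdh22 had 2 in UKS and 1 in KS, Cdh8 had 1 in UKS and none in KS, Cdh20 had none in UKS and 1 in KS, and Cdh7 and Cdh19 had none. The level of Cdh5 was as low as the endothelial markers of the 2 libraries.

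Cadherins outside these 2 types were lower in UKS or near the floor. Cdh13, T-cadherin, which lacks an inner tail and is held in the membrane by a GPI anchor, had 811 counts (34.7 CPM) in UKS and 2172 counts (82.3 CPM) in KS. It was 2.37-fold lower in UKS (2.18 to 2.57), with log2 ratios of -1.22 as counted and -1.29 with the trend removed. Cdh26 had 5 counts in UKS and 45 in KS (7.96-fold lower in UKS, 3.17 to 25.7). Cdh17, the cadherin of intestine and liver, had 9 counts in UKS and 38 in KS (3.73-fold lower, 1.77 to 8.78). Cdh23, which forms the tip links of hair cells together with Pcdh15, had 15 counts in UKS and 34 in KS (2.005-fold lower, 1.06 to 3.96). The mean of each of these 3 genes was under 1 CPM, outside the measured set. Cdh16, known from kidney tubules, had no counts.

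Per kilobase of transcript, the measure on which genes can be set against each other, Pcdh7 led the unclustered genes of both libraries at 38.3 CPM per kb in UKS (37.4 to 39.1) and 36.5 CPM per kb in KS (35.7 to 37.3). Among the Cdh genes the order of the top 2 was not the same in both. In UKS, Cdh11 at 14.3 CPM per kb (13.6 to 14.9) and Cdh2 at 13.6 (13.0 to 14.3) did not part beyond their intervals, while in KS, Cdh2 at 30.5 CPM per kb (29.5 to 31.5) lay above Cdh11 at 26.9 (26.1 to 27.7). Cdh13 came next with 9.18 CPM per kb in UKS (8.56 to 9.83) and 21.7 in KS (20.8 to 22.7). Below it in UKS, Pcdh18 at 6.48 CPM per kb (6.03 to 6.95), Cdh24 at 6.30 (5.76 to 6.87) and Pcdh19 at 5.99 (5.69 to 6.31) overlapped. In KS these 3 were apart, with Pcdh19 at 19.0 CPM per kb (18.5 to 19.5), Pcdh18 at 9.99 (9.47 to 10.5) and Cdh24 at 3.46 (3.09 to 3.87).

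Within the summed level per kilobase of type I and type II genes, Cdh11 held 40.02% in UKS and 39.8% in KS, and Cdh2 held 38.3% in UKS and 45.1% in KS. Cdh24 held 17.7% in UKS and 5.12% in KS, and Cdh3 held 1.07% in UKS and 4.02% in KS. The same 2 genes, Cdh11 and Cdh2, thus made up most of the classical cadherin RNA of both libraries.

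The delta-1 protocadherins, whose inner tail carries a motif that binds protein phosphatase 1, were not lower as a group. Pcdh7 had 7851 counts (336 CPM) in UKS and 8460 counts (320 CPM) in KS, a ratio of 1.05 (1.02 to 1.08) and a log2 ratio of 0.07, against 0.77 with the trend removed. In the annotation 2235 nt of its exons lie opposite a transcript on the other strand, 4932441J04Rik, which had 107 counts in UKS and 106 in KS, and reads of the pair cannot be told apart where strand was not used. Pcdh9, known from brain, had 395 counts (16.9 CPM) in UKS and 1062 counts (40.2 CPM) in KS, 2.38-fold lower in UKS (2.12 to 2.68), and its log2 ratio of -1.20 came to -0.47 with the trend removed. Pcdh1, known from airway epithelium, had 114 counts (4.88 CPM) in UKS and 71 counts (2.69 CPM) in KS, 1.82-fold higher in UKS (1.34 to 2.48), at log2 ratios of 0.67 and 0.54. Pcdh11x had 15 counts in UKS and 12 in KS.

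The delta-2 protocadherins, whose tails bind the WAVE complex that drives actin branching, held the unclustered protocadherin with the largest count difference. Pcdh19, an X-linked gene known in humans from an epilepsy of girls, had 1440 counts (61.7 CPM) in UKS and 5164 counts (195.6 CPM) in KS. It was 3.17-fold lower in UKS (2.99 to 3.36), with a log2 ratio of -1.65 as counted and -0.95 with the trend removed, inside 2-fold on the second scale. The 2 libraries also differed in sex-linked transcripts, with Xist at 6998 counts in UKS and 1 in KS, and the Y-linked genes Ddx3y at 1 in UKS and 1511 in KS, Eif2s3y at 0 in UKS and 1486 in KS, Kdm5d at 8 in UKS and 1195 in KS, and Uty at 0 in UKS and 817 in KS. What part of the Pcdh19 difference goes with this was not tested. The other X-linked member, Pcdh11x, did not part beyond its counting interval, at a ratio of 1.41 (0.618 to 3.31).

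Pcdh18 had 782 counts (33.5 CPM) in UKS and 1363 counts (51.6 CPM) in KS, 1.54-fold lower in UKS (1.41 to 1.69), at log2 ratios of -0.61 and -0.20. Pcdh10, on the same chromosome 3, lay on the other side with 208 counts (8.91 CPM) in UKS and 156 counts (5.91 CPM) in KS, 1.51-fold higher in UKS (1.22 to 1.87). On the log2 scale it stood at 0.52, and at 1.34 without the trend, which made it the 1 unclustered gene called higher on the second scale. Pcdh17, which works at synapses and growing axons in brain, had no counts in UKS and 47 counts (1.78 CPM) in KS, at least 13.9-fold lower in UKS against a floor of 3 counts in the UKS library. Taking the counting error of both libraries together, the exact interval of its UKS to KS ratio reached up to 0.0923, a weaker bound. With a mean under 1 CPM it was outside the measured set. Pcdh8 had none in UKS and 1 count in KS.

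Of the other unclustered protocadherins, Pcdh20 had 10 counts (0.428 CPM) in UKS and 58 counts (2.20 CPM) in KS, 5.13-fold lower in UKS (2.60 to 11.3), with log2 ratios of -1.16 and -0.49. Pcdh15, the tip link partner of Cdh23, had 17 counts (0.728 CPM) in UKS and 46 counts (1.74 CPM) in KS, 2.39-fold lower in UKS (1.35 to 4.45), with a log2 ratio of -0.67 as counted and 0.13 with the trend removed. The sign of Pcdh15 therefore depended on that step. Pcdh12, an endothelial protocadherin, had none in UKS and 4 counts in KS.

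**Figure D2:**
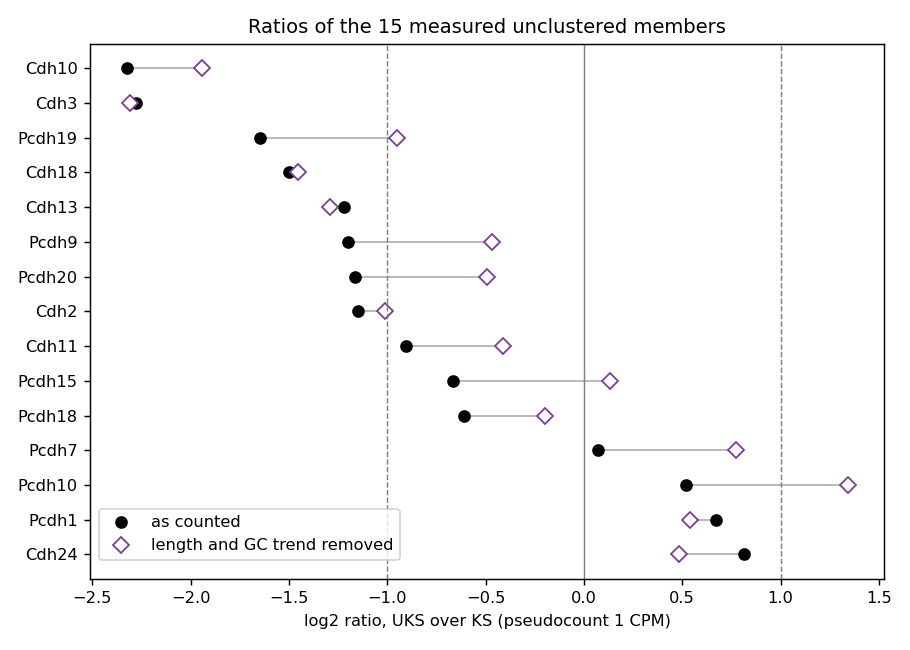
Log2 ratio of UKS over KS for the 15 measured unclustered genes, as counted (black) and with the length and GC trend removed (open diamonds), with dashed lines at 2-fold. Cdh3, Cdh18 and Cdh13 hardly move and stay past the lower line, and Cdh2 moves from -1.15 to -1.01, just past it. Pcdh9, Pcdh19 and Pcdh20 move to within 2-fold, and Pcdh10 moves past the upper line at 1.34.

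The step mattered because the members are long and low in GC: the 15 measured unclustered genes had a median transcript length of 5241 nt and 45.8% GC, beside 3158 nt and 49.9% for all measured genes. Over all measured genes the median log2 ratio was -0.81 in the tenth with the lowest GC and 0.40 in the tenth with the highest. Cdh3 (52.1% GC), Cdh13 (51.5%) and Cdh2 (49.5%) lay below other genes of like GC, while Pcdh20 (42.0%) and Pcdh9 (42.6%) lay where low ratios were common. What gives the trend was not tested.

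**Figure D3:**
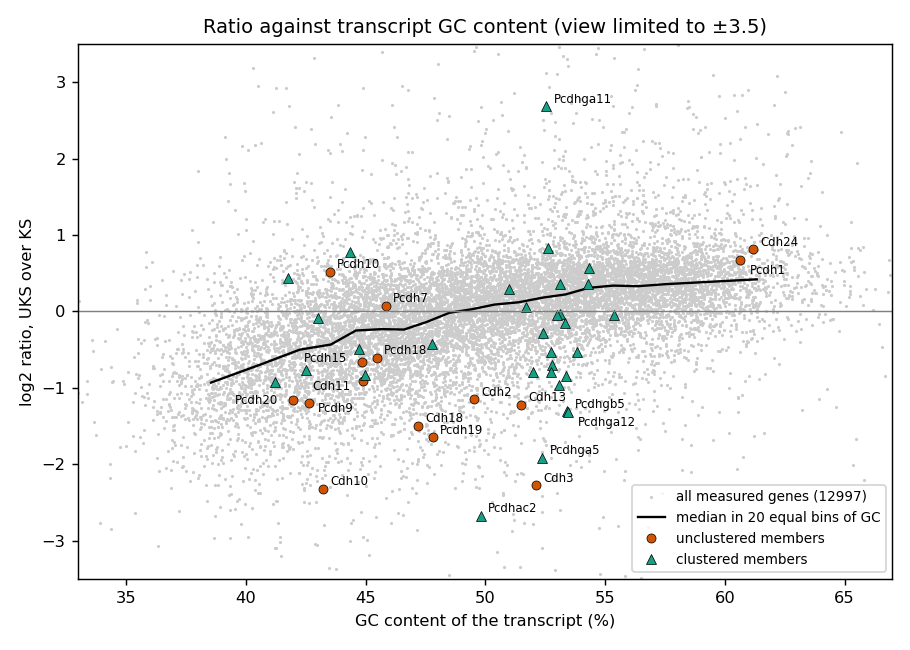
Log2 ratio of UKS over KS against the GC content of the transcript for 12997 measured genes (grey), with the unclustered members as circles, the clustered members as triangles and the running median as a line. Cdh3, Cdh13, Cdh10 and Cdh18 lie well under the line, Pcdh9, Pcdh20 and Pcdh15 lie nearer to it, and the clustered Pcdhga11 lies far above it at 2.69.

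Of the 58 clustered genes, all on chromosome 18, 31 were measured, of which 1 was higher in UKS (3.23%, against 5.81% of all measured genes) and 4 were lower (12.9%, against 10.7%), with a median log2 ratio of -0.43. With the trend removed 3 were higher (9.68%, against 5.5%) and 4 were lower (12.9%, against 4.97%). Pcdhac2, Pcdhgb5 and Pcdhga8 were under 1 CPM in UKS and were measured through their KS level alone, so they had to lie lower. Pcdhac2 and Pcdhgb5 are among the genes called lower on both scales. Counts of single genes here are uncertain, because the isoforms of a cluster end in the same exons: 2116 nt of exon are shared by all 22 Pcdhg genes (27.7% to 45.9% of a gene's exon bases) and 2860 nt by all 14 Pcdha rows (38.0% to 54.9%). All 22 Pcdhg genes and all 5 Pcdha rows with counts had an estimated count that was not whole in at least 1 library, against 6 of 20 Pcdhb genes and 4 of 29 unclustered genes (Pcdh7, Cdh2, Cdh24 and Cdh11). A sum over a cluster does not depend on how reads were divided among its own genes, but it can depend on reads shared with other annotated genes, such as Gm38182 (6 counts in UKS and 21 in KS), which overlaps the Pcdhg exons.

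The 3 clusters had unlike sums. Pcdhg was the abundant one with 17161 counts (735 CPM) in UKS and 18760 counts (711 CPM) in KS, a ratio of 1.03 (1.01 to 1.06). Pcdhb summed to 837 counts (35.8 CPM) in UKS and 1109 counts (42.0 CPM) in KS, 1.17-fold lower in UKS (1.07 to 1.28). Pcdha summed to 13 counts (0.557 CPM) in UKS and 183 counts (6.93 CPM) in KS, 12.5-fold lower in UKS (7.10 to 23.8). Of the 3, the alpha cluster had by far the fewest counts in either library and the largest fold between them, and 171 of its 183 KS counts were those of 1 gene.

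That gene was Pcdhac2, the last variable exon of the alpha cluster, which is known to be driven apart from the alternate isoforms. It had 4 counts (0.171 CPM) in UKS and 171 counts (6.48 CPM) in KS, 37.8-fold lower in UKS (14.5 to 140.4), with a log2 ratio of -2.67 as counted and -2.45 with the trend removed. The other alpha isoforms with any counts were Pcdha9 with 5 in UKS and none in KS, Pcdha6 with none in UKS and 2 in KS, Pcdha12 with 2 in UKS and 4 in KS, and 1 of the 2 rows named Pcdha11 with 2 in UKS and 6 in KS. The remaining 9 rows had none.

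In the Pcdhg cluster the 3 C-type isoforms, which lie last and are not part of the stochastic choice, held 81.2% of the counts in UKS (80.6% to 81.7%) and 79.4% in KS (78.8% to 79.97%). Pcdhgc3 alone had 9308 counts (398.7 CPM) in UKS and 10919 counts (413.6 CPM) in KS, a log2 ratio of -0.05, and was 54.2% of the cluster in UKS and 58.2% in KS. Of its exon bases 1559 nt lie opposite the antisense gene BC037039, which had 185 counts in UKS and 193 in KS. Pcdhgc4, known to be needed for the survival of neurons, had 3830 counts (164.0 CPM) in UKS and 3382 counts (128.1 CPM) in KS, a ratio of 1.28 (1.22 to 1.34), and was 22.3% of the cluster in UKS and 18.0% in KS. Pcdhgc5 had 789 counts (33.8 CPM) in UKS and 594 counts (22.5 CPM) in KS, a ratio of 1.502 (1.35 to 1.67). The C-type genes as a whole were near level, with a ratio of 1.06 (1.03 to 1.08).

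The alternate isoforms were near level in sum and unlike one by one. Pcdhga genes summed to 2221 counts in UKS and 2473 in KS, a ratio of 1.02 (0.958 to 1.08), and Pcdhgb genes to 1013 in UKS and 1392 in KS, 1.22-fold lower in UKS (1.12 to 1.32). Pcdhga11 had 434 counts (18.6 CPM) in UKS and 54 counts (2.05 CPM) in KS, 9.09-fold higher in UKS (6.84 to 12.3). Its log2 ratio was 2.69, and its share of the 19 alternate isoforms was 13.4% in UKS and 1.40% in KS. Of its exon bases 1381 nt lie opposite Gm26672 on the other strand, which had 6 counts in UKS and 10 in KS. Gm26672 also lies opposite exons of Pcdhga10, Pcdhgb7 and Pcdhga12. Pcdhga7 had 608 counts (26.0 CPM) in UKS and 377 counts (14.3 CPM) in KS, 1.82-fold higher in UKS (1.60 to 2.08), and was the most abundant alternate isoform in UKS at 18.8%, against 9.75% in KS.

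Others lay the opposite way. Pcdhga5 had 58 counts (2.48 CPM) in UKS and 320 counts (12.1 CPM) in KS, 4.88-fold lower in UKS (3.68 to 6.57), a share of 1.79% in UKS and 8.28% in KS. Pcdhgb5 had 14 counts (0.600 CPM) in UKS and 78 counts (2.95 CPM) in KS, 4.93-fold lower in UKS (2.77 to 9.43), and Pcdhga12 had 55 counts (2.36 CPM) in UKS and 194 counts (7.35 CPM) in KS, 3.12-fold lower in UKS (2.30 to 4.29). Pcdhga11 lies between Pcdhgb7 (log2 ratio -0.04) and Pcdhgb8 (-0.53), so its immediate neighbours did not share its difference. The most abundant alternate isoform in KS was Pcdhgb6 with 294 counts (9.09%) in UKS and 492 counts (12.7%) in KS. The remaining Pcdhga and Pcdhgb genes had log2 ratios between -0.96 (Pcdhga10) and 0.36 (Pcdhgb4), within 2-fold with 1 CPM added. By plain fold 4 of them were over 2-fold lower in UKS: Pcdhga8 (3.06-fold, 1.62 to 6.19), Pcdhga10 (2.19-fold, 1.70 to 2.84), Pcdhga2 (2.06-fold, 1.56 to 2.76) and Pcdhga9 (2.03-fold, 1.48 to 2.81).

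Pcdhb genes each consist of 1 exon and share no constant part, and 8 of 22 were measured, none of them past 2-fold as counted with 1 CPM added. Pcdhb22, the highest in KS, had 161 counts (6.90 CPM) in UKS and 345 counts (13.1 CPM) in KS, 1.90-fold lower in UKS (1.57 to 2.30), and was 19.2% of the cluster in UKS and 31.1% in KS. Pcdhb17, the highest in UKS, had 261 counts (11.2 CPM) in UKS and 162 counts (6.14 CPM) in KS, 1.82-fold higher in UKS (1.49 to 2.23), and was 31.2% of the cluster in UKS and 14.6% in KS. The 2 libraries thus had a different leading Pcdhb gene. By plain fold Pcdhb19 was 2.36-fold lower in UKS (1.66 to 3.40) and Pcdhb21 2.08-fold lower (1.44 to 3.04). Pcdhb19 had 45 counts in UKS and 120 in KS (log2 ratio -0.92 as counted, -0.02 with the trend removed), Pcdhb21, of which 455 nt overlap Pcdhb22, had 43 in UKS and 101 in KS (-0.76 and -0.19), and Pcdhb20 had 42 in UKS and 78 in KS (-0.50 and -0.20). Pcdhb18 had 81 counts in UKS and 61 in KS (0.43 and 1.10), Pcdhb16 had 74 in UKS and 90 in KS (-0.08 and 0.51), and Pcdhb5 had 28 in UKS and 52 in KS (-0.43 and -0.34). With the trend removed Pcdhb17 (1.21) and Pcdhb18 (1.10) passed 2-fold, which is 2 of the 8 measured (25%, against 5.5% of all genes on that scale). In both libraries the counts gathered at the downstream end of the cluster, from Pcdhb14 to Pcdhb22, while of the 13 genes upstream only Pcdhb5 was measured.

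**Figure D4:**
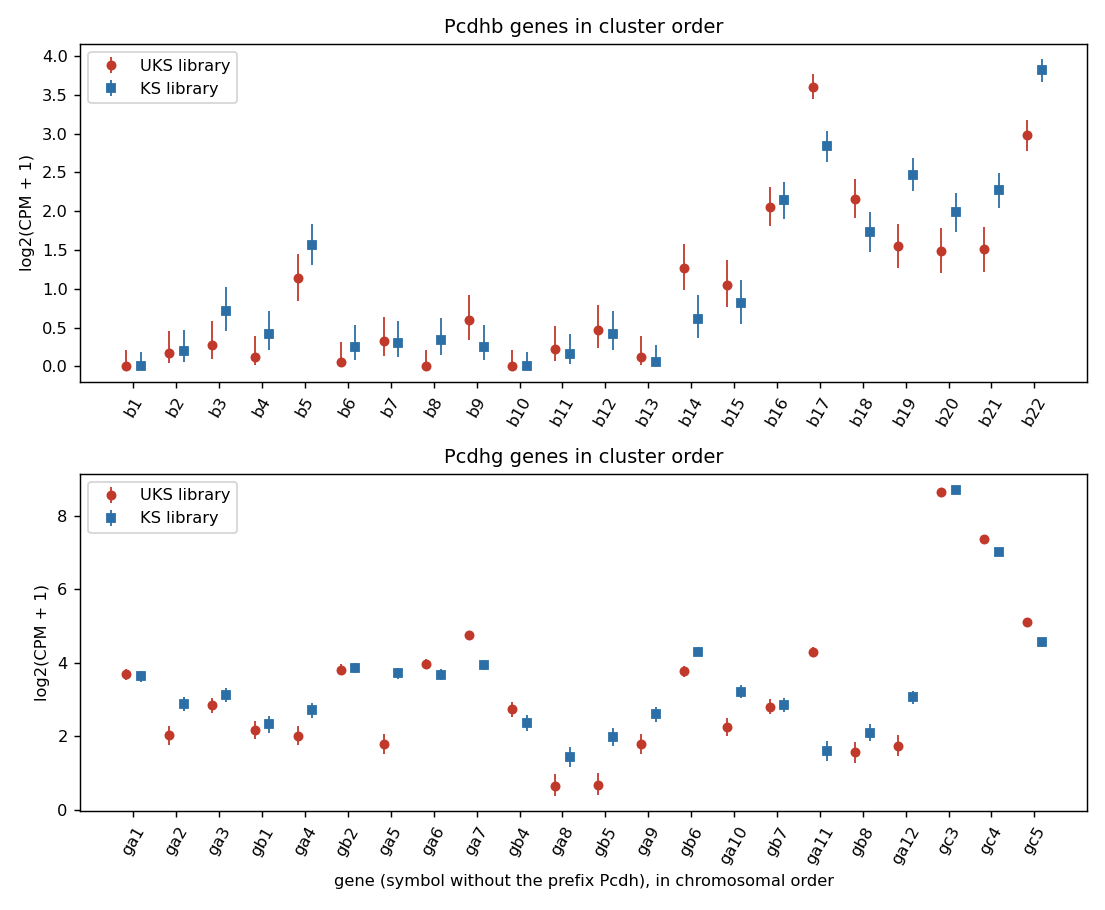
Level of the 22 Pcdhb genes (top) and the 22 Pcdhg genes (bottom) in chromosomal order, as log2(CPM + 1), with red circles for the UKS library, blue squares for the KS library and bars for exact Poisson 95% intervals. Pcdhb17 and Pcdhga11 stand higher in UKS, Pcdhb22 and Pcdhga5 stand lower there, and Pcdhgc3 tops the cluster in both libraries at 398.7 CPM in UKS and 413.6 CPM in KS.

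Genes that work with cadherins are given from 7 lists by function, and in each the genes with the largest ratios in either direction are named. Of 11 measured catenins and plakophilins 1 was higher in UKS (9.09%, against 5.81% of all measured genes) and none lower (against 10.7%). The median log2 ratio was -0.18. With the trend removed 1 was higher (9.09%, against 5.5%) and 2 were lower (18.2%, against 4.97%). Ctnnb1, beta-catenin, had 25682 counts in UKS and 23619 in KS (log2 ratio 0.30), Ctnnd1, p120-catenin, had 5858 in UKS and 7502 in KS (-0.18), and Ctnna1, alpha-catenin, had 8401 in UKS and 14950 in KS (-0.65). These 3 partners of the cadherin tail lay within 2-fold, while Cdh2 lay just past it. The gene called higher was Pkp1, a desmosomal plakophilin, with 128 counts in UKS and 2 in KS (log2 ratio 2.59). Pkp1 was under 1 CPM in KS and was measured through its UKS level alone, so it had to lie higher. Pkp2 (-0.93) and Jup, plakoglobin (-0.76), came closest to the lower line and passed it with the trend removed at -1.08 and -1.10.

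Of 9 measured linkers to actin 3 were lower in UKS (33.3%, against 10.7% of all measured genes) and none higher, with a median log2 ratio of -0.64. They were Eps8, an actin-capping protein, with 3870 counts in UKS and 13618 in KS (-1.63), Afdn, afadin, with 1461 in UKS and 4418 in KS (-1.40), and Tjp1, ZO-1, with 2096 in UKS and 5972 in KS (-1.32). Vcl, vinculin, lay within at -0.79. With the trend removed 1 of the 9 stayed past 2-fold (11.1%, against 4.97%), Eps8 at -1.42.

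Of 27 atypical, desmosomal and related cadherins 6 were measured and 9 had no counts. Fat1, a giant atypical cadherin, was the 1 called lower with 8167 counts in UKS and 20252 in KS (log2 ratio -1.13, and -0.30 with the trend removed). That is 16.7% of the 6, against 10.7% of all measured genes. Dchs1 (0.50), Clstn1 (0.37) and Fat4 (0.27, and 1.22 with the trend removed) lay on the other side, and the ligand and receptor pair Dchs1 and Fat4 was not lower in UKS. Among 4 measured nectins 1 was lower (25.0%, against 10.7%), Nectin3 with 496 counts in UKS and 1302 in KS. Its log2 ratio was -1.18, and -0.44 with the trend removed, where no nectin was called. Nectin2 lay at 0.33, Pvr at -0.31 and Nectin1 at 0.04. Of 10 measured sheddases and gamma-secretase subunits, which cut cadherins at the membrane, 1 was lower in UKS (10%, against 10.7% of all measured genes). It was Aph1b (-1.08, and -0.56 with the trend removed, where none was called). None was higher. Adam15 (0.81), Psen2 (0.76) and Psenen (0.73) lay higher within 2-fold, and the median log2 ratio was 0.32.

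Of 8 measured transcription factors that repress cadherin genes 1 was higher in UKS (12.5%, against 5.81% of all measured genes) and 2 were lower (25.0%, against 10.7%). None was lower when the trend was removed. Snai1, Snail, known to repress Cdh1, had 2670 counts (114.4 CPM) in UKS and 642 counts (24.3 CPM) in KS, 4.70-fold higher in UKS (4.31 to 5.13), at log2 ratios of 2.19 as counted and 1.66 with the trend removed. Its relative Snai2, Slug, lay the other way with 794 counts in UKS and 1881 in KS (-1.05 and -0.76). Tcf4 (-1.002 as counted, -0.98 when scaled by totals, 0.05 with the trend removed) and Zeb2 (-0.78 and 0.34) changed side with that step. Cdh1 stood at 9 counts in UKS and 1 in KS beside these values.

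Of 16 measured regulators of the clustered protocadherins 8 were lower in UKS (10.7% of all measured genes were) and none was higher, with a median log2 ratio of -0.87. The cohesin loader Nipbl had 535 counts in UKS and 3117 in KS (log2 ratio -2.32), and the cohesin subunit Smc3 had 952 in UKS and 4070 in KS (-1.89). Stag2, another subunit, had 838 counts in UKS and 3386 in KS (-1.81), and the cohesin-bound Pds5a had 1554 in UKS and 4793 in KS (-1.43). The other 4 were Smchd1, a chromatin protein related to cohesin (-1.29), Stag1 (-1.22), Pds5b (-1.17) and Wapl, which releases cohesin (-1.15). With the trend removed 2 of the 16 stayed past 2-fold (12.5%, against 4.97%), Nipbl at -1.32 and Smc3 at -1.29. Ctcf, which marks the promoters and enhancers of the clusters, had a log2 ratio of -0.29, and Rad21 one of -0.36. The Pcdhg sum was near level in the same libraries and the Pcdha sum was 12.5-fold lower, and whether the regulators have a part in either was not tested.

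**Figure D5:**
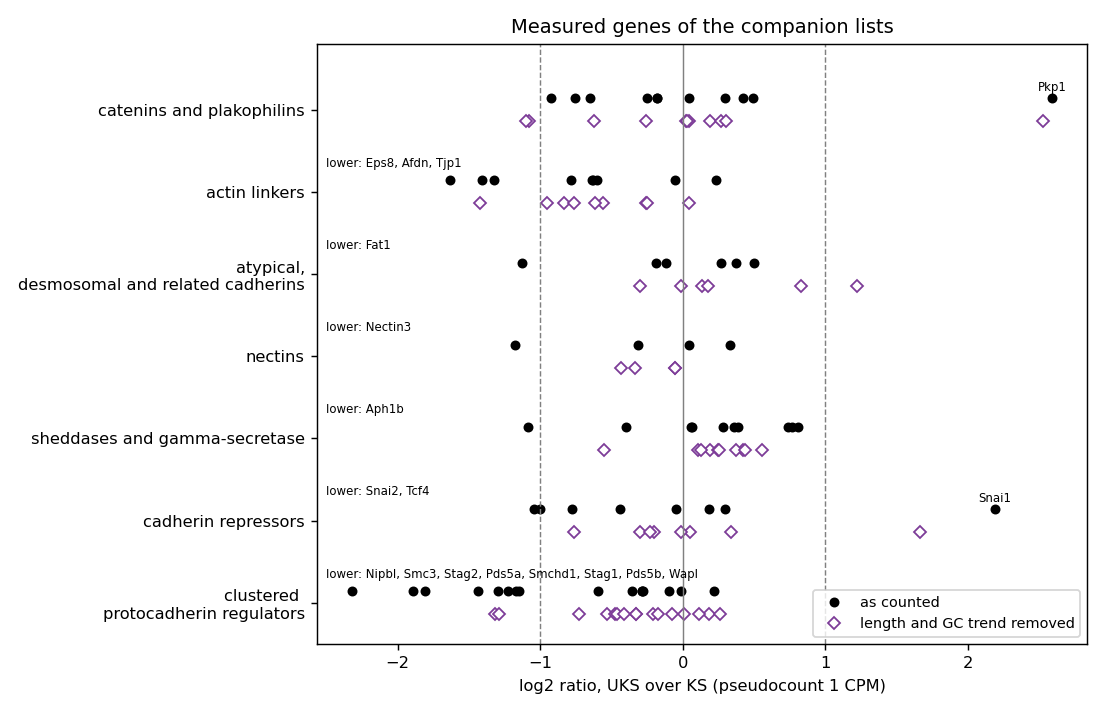
Log2 ratio of UKS over KS for the measured genes of 7 lists of cadherin partners and regulators, as counted (black) and with the length and GC trend removed (open diamonds), with dashed lines at 2-fold and the names of genes past them as counted. Pkp1 (2.59) and Snai1 (2.19) lie far right on both scales, and of 8 clustered protocadherin regulators past the lower line 2 remain there with the trend removed.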

How the data were processed

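RNA of 1 UKS and 1 KS library was made into libraries with a TruSeq RNA kit, per the labels' protocols. The authors deposited expected counts (estimated counts) by gene for each library, without scaling, and these were rounded to whole numbers: 21.5% of genes above 0 in UKS and 23.1% in KS were not whole. Per the submitters' processing notes, HISAT2, StringTie and GRCm38.p5 were used, in roles not stated there. For the counting program, annotation and strand, settings were not given in the sources used here, so reads of paralogs, overlapping and antisense genes may be mixed.

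CPM were scaled by TMM (edgeR 4.0.16; factors 1.006 for UKS and 0.994 for KS). No test was made with 1 library per group. Ratios of counts have exact conditional binomial 95% intervals and counts exact Poisson intervals (scipy 1.17.1), and a gene at 0 in 1 library is given as a bound against 3 counts there. Transcript length, GC content and coordinates came from GENCODE M21 on GRCm38 (longest coding transcript), and promoters from RefSeq on GRCm38.p6. The trend was a robust regression (Tukey biweight, statsmodels 0.14.6) on cubic terms of log length and GC over 12997 genes. Unclustered members with at least 10 counts in a library, measured clustered members and up to 4 genes per partner list, besides the 3 catenins Ctnna1, Ctnnb1 and Ctnnd1, were named with values; marker genes, sex-linked genes, further regulators and low members were named beside a result. The members and lists were chosen with earlier results of these data known. The steps were tested on simulated data. Alternatives were DESeq2 1.42.0 size factors, totals, a pseudocount of 0.1 CPM, the trend removed, no filter, and counts as deposited. Of the list symbols, Mllt4 and 4 Pvrl names were not found, as older names of Afdn and the nectins. Both lines carry a further engineered alteration that is not reported here.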

Additional observations from a re-analysis of the deposited data

How the results depend on the processing

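With DESeq2 size factors, with totals only and with counts as deposited, the numbers of unclustered and clustered genes past 2-fold were the same. The 82 named log2 ratios kept their direction and stayed within the range set by the Poisson intervals of their 2 levels. The 3 cluster sums kept their direction and stayed within their binomial intervals. Tcf4 was the 1 named gene to lose its call among these 3 settings, at -0.98 with totals. Removing the length and GC trend gave 1 unclustered gene higher in UKS (0 as counted), 5 lower (8 as counted), a median log2 ratio of -0.47 (-1.15 as counted) and 3 clustered genes higher (1 as counted), and the log2 ratio of Tcf4 was 0.0508, against -1.002 as counted. Without the filter on low genes the median of the unclustered genes was -0.48, since genes near 0 counts entered. A pseudocount of 0.1 CPM gave 9 clustered genes lower (4 as counted), because it lets low genes show larger ratios. Of the named log2 ratios, 40 of 76 moved beyond the range set by their Poisson intervals with the trend removed. In addition 1 more, Tcf4, went from past 2-fold lower to the other sign. Other named genes that changed sign, Zeb2 and Pcdh15 among them, lay within 2-fold as counted. With the smaller pseudocount 13 of 82 moved. The scaling steps placed the median of all genes at 0.03 (TMM), 0.006 (DESeq2) and 0.05 (totals). No paired analysis was possible because each group has 1 library, and for the same reason no library could be left out. Depth limits Pcdha isoforms, Cdh1 and other genes under 10 counts, and the spread between cultures is unknown. The UKS and KS lines differ in more than Usp16 level, sex-linked transcripts among them, and these cannot be told apart from the deletion.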
